A study of Mus musculus with 6 samples.

Results

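The genes described here are the noncoding genes and pseudogenes listed as higher in mice that responded behaviourally to ketamine than in mice that did not. They are the rows of the deposited gene table that carry any biotype other than protein coding, lie outside the mitochondrial chromosome and hold at least 30 reads summed over the 6 libraries. Of 1375 listed genes, 115 were nuclear and not protein coding, and 83 of these reached 30 reads. They comprised 41 long noncoding genes, 34 pseudogenes, 7 TEC entries (loci whose transcription the annotation leaves to further experiments) and 1 structured RNA gene. Prefrontal cortex came from 6 C57bl/6j males of an inbred strain, siblings housed 3 per cage, whose age the labels do not give. All 6 received 10 mg/kg ketamine, an NMDA receptor antagonist, intraperitoneally, 24 hours before sampling. Novelty suppressed feeding and forced swimming sorted them into 3 nonresponders (NR) and 3 responders (Res), each mouse giving 1 library made from polyA RNA, all in batch 1. No untreated mice were among the samples.

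Long noncoding RNAs are transcribed and often spliced like messenger RNAs but have no long reading frame. Some carry small nucleolar RNAs in their introns, some act in the nucleus near their own gene, and a few, such as the rodent RNA Bc1, act in the cytoplasm of neurons. Processed pseudogenes are reverse-transcribed copies of messenger RNAs that were pasted back into the genome. Nuclear copies of mitochondrial DNA are pieces of the mitochondrial genome that were inserted into a chromosome. Such copies can be nearly identical to their parent gene, so a short read may come from either.

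The members were chosen by the difference itself. The authors' deposited table listed only genes with a p-value below 0.05 that were higher in responders, so every member was higher in responders by construction. The differences below are therefore descriptions and were not tested. Levels are the authors' FPKM (fragments per kilobase of gene length scaled to the authors' size of each library), and a log2 difference is the log2 ratio of the responder mean to the nonresponder mean. The library scale lay between 14981505 and 19298950 reads and the reads of listed genes between 1989534 and 3486903 per library. Responder replicate 3 had both the smallest scale, 14981505, and the most reads of listed genes, 3486903. Members held 7684 to 16737 reads per library, 62925 in all, and Cct6a and Dbpht2 gave 43.6% of them. Responder replicate 3 was the highest library in 1204 of the 1375 listed genes (87.6%), so values without it are given beside each group.

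By the authors' deposited table, 0 members passed the adjusted threshold of 0.05, compared with 19 of 1375 listed genes (1.38%). The smallest adjusted p there was 0.0541, for A330048O09Rik. All 83 had an unadjusted p-value below 0.05 there, as the selection required. The median log2 difference of the members was 1.21, against 0.57 over all listed genes and 0.55 over listed protein-coding genes. It was 0.66 without responder replicate 3, against 0.26 over all listed genes. Of the 83 members, 54 were at least 2-fold higher in responders, against 180 of the 1358 listed genes with a ratio (13.3%) and 104 of 1252 protein-coding genes (8.31%). Without responder replicate 3 the counts were 27 members and 92 listed genes. Responder replicate 3 was the highest library in 66 of the 83, and in 88.7% of listed protein-coding genes. The groups did not overlap, with the lowest responder above the highest nonresponder, in 55 of the 83. This held for 1010 of 1375 listed genes (73.5%) and for 930 of 1256 protein-coding genes (74.0%). In bulk tissue, a change in the number of cells of a type and a change in RNA per cell cannot be told apart.

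The size of the difference followed the number of reads, for members and coding genes alike. A gene with few reads entered the table only if its difference was large, and the lower edge of the plot of difference against read number falls steadily with reads. At 30 to 99 reads the median log2 difference was 1.99 in 27 members and 2.02 in 18 listed protein-coding genes. At 100 reads or more but under 300 it was 1.10 in 23 members and 1.14 in 47 protein-coding genes. At 300 reads or more it was 0.89 in 33 members and 0.53 in 1182 protein-coding genes, and without responder replicate 3 it was 0.41 and 0.25. The protein-coding genes of this last class had more reads, with a median of 4214 against 612. Within it, 9 of 33 members and 50 of 1182 protein-coding genes were at least 2-fold higher.

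**Figure D1:**
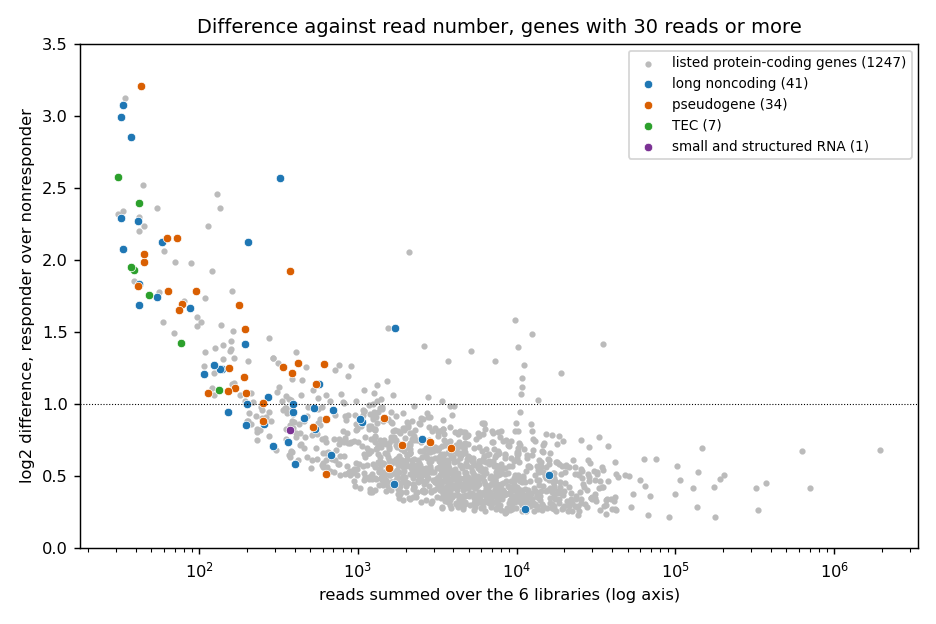
Log2 difference between responders and nonresponders (vertical axis) against reads summed over the 6 libraries (log axis) for listed genes with at least 30 reads; each point is a gene, and the dotted line marks a 2-fold difference. Members and protein-coding genes share the same falling lower edge, and Bc1, at 323 reads and a log2 difference of 2.57, stands above the other genes of its read number.

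Just inside the limit of 30 reads were Gm42690 with 31 reads and AC113006.1 and Gm38944 with 32 each. Just outside it were Gm43823, 4933408N05Rik and Gm48986, with 29, 28 and 27 reads. Below the limit lay 32 nuclear noncoding rows, of which 13 had 0 reads in all 3 nonresponders. The authors' deposited table gave an adjusted p of exactly 1 for 33 of the 83 members, and these had at most 139 reads. It did so for 108 of the 1375 listed genes, which had at most 143 reads.

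The largest difference among the 1217 listed genes with at least 300 reads was that of Bc1, a short RNA made by RNA polymerase III that is carried into neuronal dendrites and represses translation there. Bc1 (ENSMUSG00000115783) lies at chr7:144914470-144914637 (mm10, plus strand), and the annotation gives it as a single-exon lincRNA. Its whole annotated sequence is shown because it is short and holds an internal run of A within a library made from polyA RNA. Capitals mark the longest stretch with at least 80% A that both starts and ends with AAA, positions 77 to 128.
Bc1: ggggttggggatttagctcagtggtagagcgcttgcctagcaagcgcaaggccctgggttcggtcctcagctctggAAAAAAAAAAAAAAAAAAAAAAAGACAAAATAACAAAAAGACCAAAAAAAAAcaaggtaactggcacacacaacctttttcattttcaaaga
In nonresponders Bc1 stood at 4.46, 6.58 and 6.48 FPKM, and in responder replicates 1, 2 and 3 at 6.81, 16.4 and 80.7 FPKM. The groups did not overlap, but responder replicate 1 lay next to the nonresponders and replicate 3 far above all others, with 203 of the 323 reads. The log2 difference was 2.57 with all mice and 0.99 without responder replicate 3, and the authors' deposited table gave an adjusted p of 0.195.

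Host genes of small nucleolar RNAs are spliced transcripts whose introns release RNAs that guide the chemical modification of ribosomal RNA. Of 21 such genes on the list, 7 were in the table, and the authors' deposited table gave 0 of them an adjusted p below 0.05. All 7 were highest in responder replicate 3, as were 87.6% of all listed genes. The median log2 difference of the 7 host genes was 0.97, or 0.23 without that library. Their medians over the nonresponder mean were 0.36, 0.07 and 1.82 on the log2 scale in responder replicates 1, 2 and 3. Among them, Snhg8 stood at 4.21, 4.64 and 3.71 FPKM in nonresponders and at 5.43, 3.59 and 15.7 FPKM in responders, so the groups overlapped. Snhg1 stood at 1.48, 1.73 and 1.57 FPKM in nonresponders and at 2.04, 1.65 and 5.58 FPKM in responders, again with overlap. In Snhg8 responder replicate 2 was below every nonresponder, and in Snhg1 it lay among them.

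Zfas1, Snhg5 and Epb41l4aos also overlapped between groups, with log2 differences of 0.88, 0.90 and 1.05 that were 0.15, 0.31 and 0.23 without responder replicate 3. Snhg4 and Snhg18 were the host genes in which every responder lay above every nonresponder. Snhg4 stood at 0.757, 0.574 and 0.922 FPKM in nonresponders and at 0.946, 1.35 and 2.66 FPKM in responders. Snhg18 stood at 0.468, 0.627 and 0.558 FPKM in nonresponders and at 0.917, 1.03 and 1.98 FPKM in responders, with a log2 difference of 1.25, or 0.82 without responder replicate 3. Its annotated start lies 148 bases from that of Sema5a, an axon guidance gene on the opposite strand, which was not in the table.

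The most abundant long noncoding entries were genes with a protein name or family in their description. Cct6a, a subunit of the cytosolic chaperonin that folds actin and tubulin, is a processed transcript by the table, and GENCODE release M21 gives none of its 7 transcripts as coding. It held 16096 reads and stood at 37.1, 34.03 and 35.9 FPKM in nonresponders and at 41.3, 43.9 and 66.9 FPKM in responders. All responders lay above all nonresponders, and the log2 difference was 0.51, or 0.26 without responder replicate 3. Dbpht2, described as a DNA binding protein, had the smallest difference of all members, with means of 18.5 ± 1.90 FPKM for nonresponders and 22.3 ± 1.53 FPKM for responders (SD, 3 mice each, n = 3). The directions of Cct6a and Dbpht2 turned when values were scaled to the reads of listed genes, to log2 differences of -0.01 and -0.19; under that scaling the median of all listed genes was 0.04. AC078895.1, a lincRNA in the table, is protein coding in release M21, with 2 coding transcripts.

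Ndufb1-ps is named for a subunit of respiratory complex I and is typed as a bidirectional promoter RNA. It stood at 6.32, 9.19 and 7.95 FPKM in nonresponders and at 10.3, 10.5 and 47.0 FPKM in responders. The first 2 responders were just above the highest nonresponder, and responder replicate 3 stood apart. Its log2 difference was 1.53 with all mice and 0.41 without that library. It overlaps Cpsf2, a gene of messenger RNA 3′ end processing, on the opposite strand, where 12.7% of its exon bases lie in exons of Cpsf2.

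Pantr1, a long noncoding RNA of neural tissue, starts 926 bases from Pou3f3, a transcription factor gene of cortical neurons. It stood at 4.25, 4.14 and 4.18 FPKM in nonresponders and at 4.15, 4.75 and 12.3 FPKM in responders. Responder replicate 1 lay among the nonresponders, and without responder replicate 3 the log2 difference of 0.76 was 0.09. Bc1 and Pantr1 were the members in the table of 19 listed brain lncRNAs. None of 10 imprinted noncoding RNAs and none of 8 nuclear and X-linked lncRNAs, such as Meg3 and Malat1, was in the table.

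A330048O09Rik, a lincRNA on chromosome 13 with no role stated here, had the smallest p-value of the members. It stood at 0.797, 1.13 and 1.54 FPKM in nonresponders and at 2.27, 2.91 and 9.93 FPKM in responders. The groups did not overlap, and the log2 difference was 2.13, or 1.17 without responder replicate 3. 2810407A14Rik averaged 0.281 ± 0.0805 FPKM in nonresponders against 0.751 ± 0.531 in responders (SD, n = 3 each), on 194 reads. Its log2 difference of 1.42 was 0.67 without responder replicate 3.

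**Figure D2:**
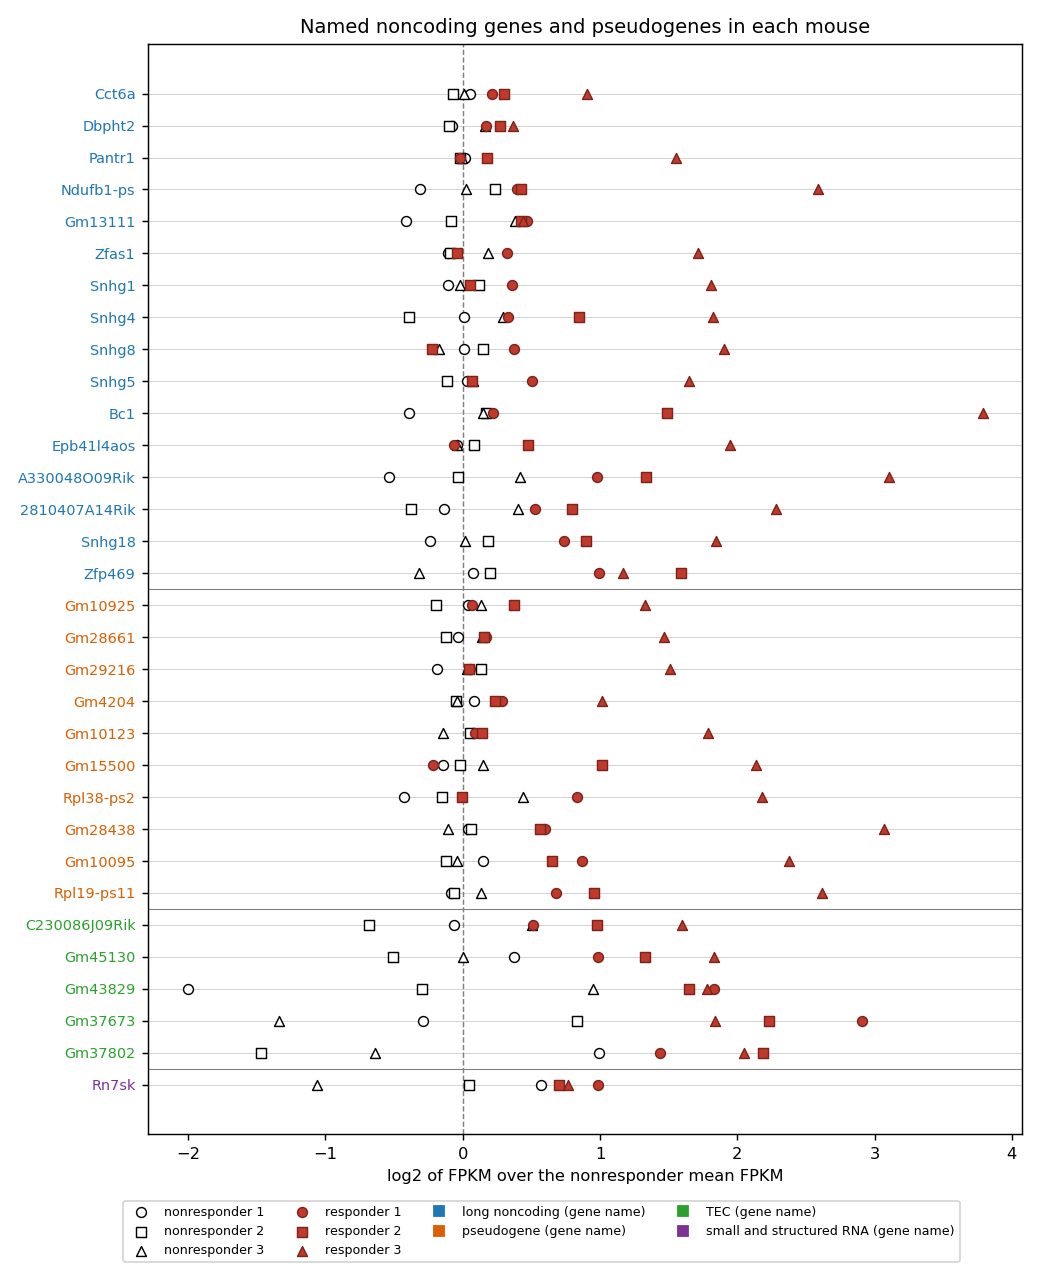
Each row is a named member and each point a mouse: log2 of its FPKM over the mean FPKM of the 3 nonresponders, with open symbols for nonresponders and filled symbols for responders. Responder replicate 3 (filled triangle) lies far to the right for Bc1, the small nucleolar RNA host genes and most named pseudogenes, and among the other responders for Gm13111, Gm43829, Gm37802 and Rn7sk.

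In 17 of the 83 members responder replicate 3 was not the highest library, and in 16 of these the groups did not overlap. Among all listed genes, 171 had another library highest, and the groups did not overlap in 154 of them (90.1%). With at least 100 reads there were 8 such members, named here after their values were seen where they fell outside the naming rule: Gm13111, 2900079G21Rik, AC078895.1, A330015K06Rik, 1500002C15Rik, Zfp469, Gm3325 and Rn7sk. Rn7sk, the 7SK RNA that holds the elongation factor P-TEFb inactive, stood at 11.6, 8.09 and 3.76 FPKM in nonresponders and at 15.5, 12.8 and 13.3 FPKM in responders. In these libraries made from polyA RNA, it held 72, 46 and 24 reads in nonresponders and 94, 69 and 66 in responders. The responders lay close together, while the nonresponders spread widely. Its log2 difference of 0.82 was 0.85 without responder replicate 3, and 0.49 to 1.23 over all settings that left out 1 library.

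AC078895.1 averaged 1.29 ± 0.140 FPKM in nonresponders against 2.10 ± 0.203 in responders (SD, n = 3 each), a log2 difference of 0.71, or 0.76 without responder replicate 3. A330015K06Rik, antisense to the potassium channel gene Kcnab1, stood at 0.225, 0.207 and 0.226 FPKM in nonresponders and at 0.432, 0.425 and 0.334 FPKM in responders. 1500002C15Rik, antisense to the phosphatase gene Ssu72, stood at 0.613, 0.347 and 0.404 FPKM in nonresponders and at 0.974, 0.981 and 0.673 FPKM in responders. In these 2 antisense genes responder replicate 3 was the lowest responder, yet above every nonresponder. Zfp469, named for a zinc finger protein, averaged 0.231 ± 0.0412 FPKM in nonresponders against 0.558 ± 0.122 in responders (SD, n = 3 each). Gm13111, whose start lies 703 bases from that of Prdm16, a chromatin regulator of neural stem cells, stood at 2.93, 3.68 and 5.08 FPKM in nonresponders and at 5.40, 5.23 and 5.28 FPKM in responders, so nonresponder replicate 3 was close to the responders.

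The distance of responder replicate 3 from the other responders varied with biotype. Expressed as the log2 ratio of its FPKM to the mean of responder replicates 1 and 2, the median was 0.70 over all listed genes. It was 0.11 in 10 antisense genes and 0.19 in 7 TEC entries. It was 1.19 in 20 lincRNAs, 1.45 in 8 processed transcripts and 1.62 in 22 processed pseudogenes. These medians come from few genes of the same library and were not tested. The biotypes also differed in reads. The median number of reads was 42 in TEC entries, 174.5 in antisense genes and 165.5 in processed pseudogenes. It was 198.5 in lincRNAs and 632 in processed transcripts.

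**Figure D3:**
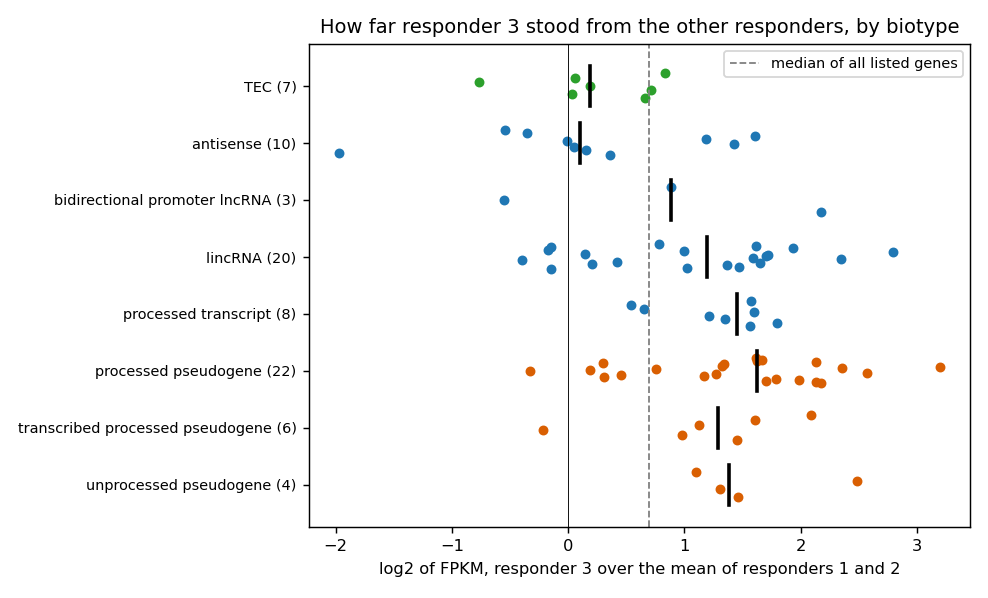
Log2 ratio of the FPKM in responder replicate 3 to the mean of responder replicates 1 and 2, for members grouped by biotype (number of members in brackets); each point is a gene, black bars are medians and the dashed line is the median of all listed genes, 0.70. Antisense and TEC medians, 0.11 and 0.19, lie to the left of the line, and those of processed transcripts and processed pseudogenes, 1.45 and 1.62, to the right.

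Of the 34 pseudogenes, 32 were highest in responder replicate 3 (94.1%, against 87.6% of all listed genes). The median log2 difference of the 34 was 1.23, or 0.54 without that library. Alignment of their annotated sequences to coding transcripts gave a parent gene for 33 of 34, with identities from 92.46% upward over at least 80% of the pseudogene. The parent was identical over the aligned bases in 12 and at least 99% identical in 26. For all 9 members whose symbol names the parent, the alignment gave that same gene. In 10 of the 33 pairs the parent was itself in the table, and in 23 it was not, and its values were not analysed here.

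A set of 4 pseudogenes, Gm29216, Gm28661, Gm10925 and Gm28438, lies within 1 stretch of chromosome 1 (chr1:24612775-24616197, mm10, minus strand). Read along the minus strand they follow mt-Co1, mt-Co2, mt-Atp6 and mt-Nd3 in the order of the mitochondrial genome, where these genes start at 5328, 7013, 7927 and 9459. The first 60 bases, or 60 bases holding the difference, are shown because they let a read be assigned to the nuclear or the mitochondrial copy, or not. Capitals mark the base that differs.
Gm10925, chr1:24614592-24614651: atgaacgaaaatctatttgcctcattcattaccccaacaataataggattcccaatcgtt
Gm28661, chr1:24615506-24615565: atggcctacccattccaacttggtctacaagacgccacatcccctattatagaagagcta
Gm29216, chr1:24616129-24616188: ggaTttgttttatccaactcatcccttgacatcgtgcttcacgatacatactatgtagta
mt-Co1: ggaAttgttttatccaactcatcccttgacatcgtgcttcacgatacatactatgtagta
Gm28438, chr1:24613060-24613119: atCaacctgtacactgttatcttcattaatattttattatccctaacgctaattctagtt
mt-Nd3: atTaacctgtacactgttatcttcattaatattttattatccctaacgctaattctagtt
Gm10925 and Gm28661 were identical to mt-Atp6 and mt-Co2 over their whole 678 and 681 bases. Gm29216 differed from mt-Co1 by 1 substitution, A13T, over 98.2% of its 492 bases, and Gm28438 from mt-Nd3 by 1, T3C, over all 345 (mitochondrial base first, positions from the first base of the pseudogene).

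Where both were in the table, the nuclear copies and their mitochondrial parents had similar log2 differences. Gm10925 stood at 43.6, 37.1 and 46.4 FPKM in nonresponders and at 44.5, 54.96 and 107 FPKM in responders, with a log2 difference of 0.70 against 0.68 for mt-Atp6. Gm28661 stood at 30.03, 28.2 and 33.9 FPKM in nonresponders and at 34.5, 34.2 and 84.9 FPKM in responders, with 0.74 against 0.75 for mt-Co2. Gm29216 had 0.71 against 0.68 for mt-Co1. Without responder replicate 3, the log2 differences of Gm10925, Gm28661 and Gm29216 were 0.23, 0.16 and 0.05, and those of mt-Atp6, mt-Co2 and mt-Co1 were 0.21, 0.26 and 0.22.

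In the identical pairs the nuclear copy held about as many reads as its parent, or more. Gm10925 held 3836 reads and mt-Atp6 3157, and Gm28661 held 2836 and mt-Co2 2789, whereas mt-Co1, of which Gm29216 copies only a part, held 1954016. The reads of Gm10925 were 117% to 128% of those of mt-Atp6 in the 6 libraries, and those of Gm28661 were 85.2% to 109% of those of mt-Co2. Neither range separated responders from nonresponders. How the authors' counting divided reads that fit both copies is not given in the sources used here, so the levels of these 2 pairs are uncertain. The same holds for Gm28438, which differed from mt-Nd3 at 1 of 345 bases, and for every other pseudogene identical or nearly identical to its parent. As deposited, Gm28438 stood apart from its neighbours, at 4.81, 4.89 and 4.36 FPKM in nonresponders and at 7.11, 6.92 and 39.3 FPKM in responders. Its log2 difference was 1.92, or 0.58 without responder replicate 3, and the authors' deposited table gave it an adjusted p of 0.0798. Its parent mt-Nd3 was not in the table.

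Copies of ribosomal protein genes made up the largest group of pseudogenes, with 14 members from 12 parent genes. All 14 were highest in responder replicate 3, and the groups did not overlap in 6, where the shares over all listed genes were 87.6% and 73.5%. Their median log2 difference was 1.49, or 0.66 without that library. Of the 12 parents, 1 was in the table, Rpl30. Gm10180 on chromosome 9 and Gm10736 on chromosome 13 are shown in full because both are identical to Rpl41, a very short protein of the large ribosomal subunit, and to each other, so a read inside them cannot be placed by sequence.
Gm10180, chr9:25101404-25101481: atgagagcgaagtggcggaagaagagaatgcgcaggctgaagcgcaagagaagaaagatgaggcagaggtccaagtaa
Gm10736, chr13:111593534-111593611: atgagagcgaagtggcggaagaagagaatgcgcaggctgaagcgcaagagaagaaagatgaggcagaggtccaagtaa
Gm10180 held 33, 51 and 25 reads in nonresponders and 59, 40 and 131 in responders, and Gm10736 held 33, 26 and 32 reads in nonresponders and 49, 28 and 83 in responders. The groups overlapped in Gm10180, and in Gm10736 responder replicate 2, at 21.96 FPKM, lay below nonresponder replicate 1, at 22.7 FPKM.

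Among the other ribosomal copies, Rpl38-ps2 stood at 8.55, 10.4 and 15.6 FPKM in nonresponders and at 20.5, 11.5 and 52.0 FPKM in responders, with overlap. Rpl19-ps11 stood at 1.36, 1.38 and 1.58 FPKM in nonresponders and at 2.31, 2.80 and 8.81 FPKM in responders, without overlap, and its log2 difference of 1.69 was 0.83 without responder replicate 3. Gm15500, a copy of Rpl5, averaged 3.54 ± 0.358 FPKM in nonresponders against 8.57 ± 6.36 in responders (SD, n = 3 each), with responder replicate 1 below every nonresponder. A pair of copies of Rpl31, chosen after their values were seen, differed in pattern. Rpl31-ps8, identical to Rpl31, stood at 2.69, 1.54 and 3.02 FPKM in nonresponders and at 3.03, 2.75 and 11.5 FPKM in responders. Gm45380, 95.7% identical to Rpl31, stood at 4.93, 5.18 and 6.42 FPKM in nonresponders and at 9.69, 9.71 and 11.0 FPKM in responders. The 3 responders of Gm45380 lay close together above all nonresponders, while in Rpl31-ps8 the groups overlapped.

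Among the other 15 pseudogenes with a parent, the log2 difference had a median of 1.09, and of 0.57 without responder replicate 3. Gm4204, a copy of the histone chaperone gene Nap1l1, stood at 10.6, 9.65 and 9.72 FPKM in nonresponders and at 12.2, 11.8 and 20.2 FPKM in responders. Its log2 difference was 0.56 against 0.35 for Nap1l1, and its reads were 4.602% to 6.34% of those of Nap1l1. Gm10123, identical to the cyclophilin gene Ppia, stood at 21.96, 21.6 and 18.8 FPKM in nonresponders and at 22.1, 23.0 and 71.7 FPKM in responders, so responder replicates 1 and 2 were barely above the nonresponders. Ptges3-ps, identical to the Hsp90 cochaperone gene Ptges3, had a log2 difference of 0.52 against 0.57 for Ptges3. Gm10095, a copy of BC004004, stood at 2.33, 1.93 and 2.04 FPKM in nonresponders and at 3.84, 3.29 and 10.9 FPKM in responders.

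In 8 of the 10 pairs with a listed parent, the pseudogene had the larger log2 difference. The gap was 0.01 and 0.03 for Gm10925 and Gm29216, and it was widest in the copies with the fewest reads. H3f3a-ps1, with 45 reads, had a log2 difference of 1.99 against 0.73 for the histone gene H3f3a. Gm9755, with 41 reads, had 1.82 against 0.38 for Tufm, the mitochondrial translation elongation factor. As low-count genes entered the table only with large differences, these gaps cannot be told apart from the selection.

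**Figure D4:**
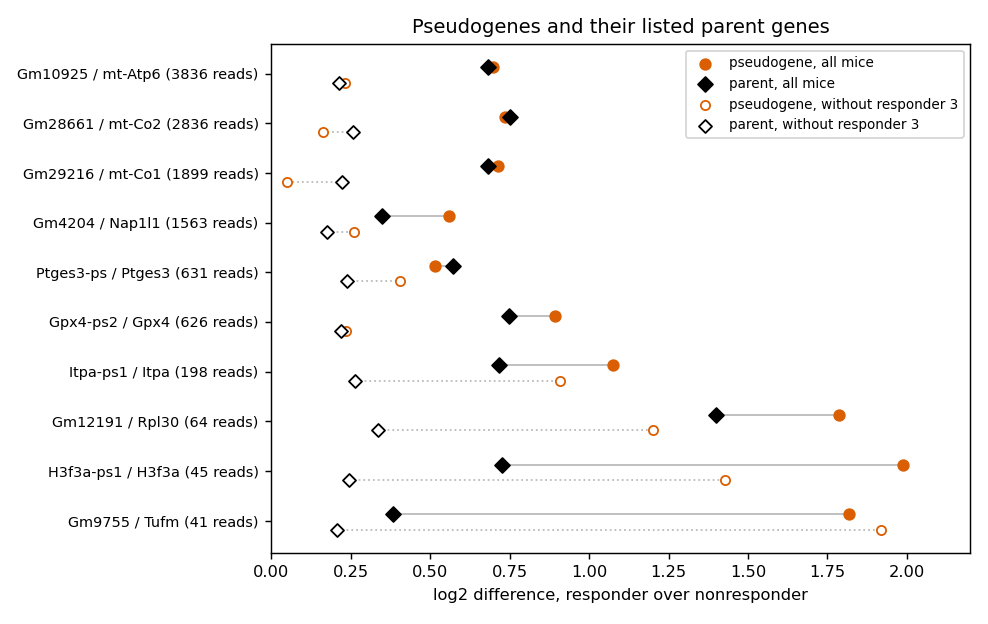
Log2 difference between responders and nonresponders for the 10 pseudogenes whose parent gene was also listed, ordered by the reads of the pseudogene (in brackets); circles are pseudogenes and diamonds parents, filled for all mice and open without responder replicate 3. The pair Gm10925 and mt-Atp6 differs by 0.01, and the gap is widest in the last 2 pairs, H3f3a-ps1 and Gm9755.

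The 7 TEC entries had few reads, between 31 and 134, and the groups did not overlap in any of them. They did not overlap in 73.5% of all listed genes, and in 12 of the 18 protein-coding genes with 30 to 99 reads. The median of their log2 differences was 1.93, or 1.86 without responder replicate 3. C230086J09Rik, the most counted, stood at 0.199, 0.130 and 0.296 FPKM in nonresponders and at 0.297, 0.410 and 0.629 FPKM in responders, so nonresponder replicate 3 and responder replicate 1 were almost equal. Gm45130 averaged 0.122 ± 0.0361 FPKM in nonresponders against 0.327 ± 0.0976 in responders (SD, n = 3 each). Gm37673 held 2, 4 and 1 reads in nonresponders and 18, 10 and 7 in responders. Its 7 nonresponder reads have an exact 95% Poisson interval of 2.81 to 14.4 and its 35 responder reads one of 24.4 to 48.7, for counting error only. Gm43829 and Gm37802 had log2 differences of 1.76 and 1.93 on 48 and 39 reads.

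Of the 7 TEC entries, 6 lay inside the span of a coding gene on the same strand while sharing no exon base with it. The 6 genes were Dlg2, a postsynaptic scaffold, Pcdh9, a protocadherin, Kcnip4, a potassium channel subunit, Satb1, a chromatin organiser, Ralgps2 and Tmem178b. None of these was in the table. Among all 49 members that were not pseudogenes, 14 overlapped a coding gene on the opposite strand and 11 shared exon bases with it, the most in Gm37885, with 86.5% of its exon bases in exons of Capn2. In 2 cases the overlapping coding gene was listed: Gm10561 had a log2 difference of 0.94 against 0.39 for Rftn2, and 1500002C15Rik 0.95 against 0.58 for Ssu72. Without the strand setting of the counting, reads of such partners cannot be told apart. In 14 of the 49 the start of a coding gene on the opposite strand lay within 1000 bases, and 1 of those genes, Rftn2, was listed.

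Markers of several cell types were also among the listed genes, all of which were higher in responders. Of 8 leptomeningeal fibroblast markers, 5 were in the table, and their summed level was 7.45 to 8.98 FPKM among nonresponders against 12.5 to 19.3 among responders. Of 8 microglia markers, 5 were in the table, at 72.1 to 84.6 and 94.96 to 192 FPKM, and of 6 astrocyte markers 4, at 192 to 217 and 245 to 333 FPKM. The choroid plexus marker Kl, 1 of 5, was at 0.256 to 0.474 and 0.525 to 0.538 FPKM. None of the 6 neuron, 6 oligodendrocyte, 4 oligodendrocyte precursor, 5 endothelium and 5 erythrocyte markers was in the table, so the labelled tissue could not be checked against neuronal markers. The part of these cell types in the noncoding genes was not tested.

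The members held 0.393% ± 0.0108 of the reads of listed genes in nonresponders and 0.436% ± 0.0389 in responders (SD, n = 3 per group). The share was 0.422% and 0.406% in responder replicates 1 and 2, where the highest nonresponder had 0.405%, and 0.480% in responder replicate 3 (exact Clopper-Pearson 95% interval 0.473% to 0.487%). Of the reads of listed genes outside the mitochondrial chromosome, the members held 0.545% ± 0.0242 in nonresponders and 0.623% ± 0.0796 in responders (SD, n = 3 each).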

How the data were processed

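RNA from the prefrontal cortex of 6 mice was sequenced, 1 library per mouse, on 3 nonresponders and 3 responders as the labels group them. The authors deposited whole-number read counts and FPKM values per gene and library. The authors computed a log2 fold change of nonresponders over responders for each gene, per the file headers. The authors also gave a p-value and an adjusted p-value for each gene, and deposited only genes with a p-value below 0.05. The submitters' processing notes name mm10 as the build. For the aligner, counter, strand setting and statistical test, nothing is given in the sources used here. The FPKM were used as deposited. Another 6 per-sample columns matched no label and were not used.

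Members and gene lists were chosen with earlier results of these data known. Because the authors selected the listed genes on this contrast, no test was run. Means, SDs, log2 ratios of group means with no pseudocount, counts and medians were computed with Python 3.11.15, pandas 2.3.3 and NumPy 2.4.6, and exact binomial and Poisson intervals with SciPy 1.17.1, which cover counting error only. Separate samples were 1 mouse each. Pseudogene transcripts from GENCODE release M21 were aligned to its coding transcripts with BLAST+ 2.17.0 (E-value limit 1e-05, at least 50% of the pseudogene). Of 83 members, 82 were found there with the same span, and Snhg4 was not. Overlaps used the same annotation. Per biotype group, the named genes were the 5 with the most reads, the 5 with the largest ratio at 100 reads or more, those past the adjusted threshold, and those on a list. The 3 members on each side of the limit were named too. The alternatives left out each library, scaled to listed reads, added 0.5 read, changed the read minimum, or paired equal replicate numbers.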

Additional observations from a re-analysis of the deposited data

How the results depend on the processing

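Leaving out 1 library gave 27 to 66 members at least 2-fold higher, against 92 to 309 of the 1375 listed genes, and a members' median of 0.66 to 1.45. The groups did not overlap in 56 to 69 members (67.5% to 83.1%), against 74.1% to 87.7% of listed genes. With 1 library fewer, non-overlap is easier to reach. The medians ranged over the same settings from 1.63 to 2.004 for TEC entries, and the structured RNA Rn7sk from 0.49 to 1.23. The count at 2-fold was lowest, at 27, without responder replicate 3. The difference in the read share ranged from 0.0215 to 0.0585 percentage points around 0.0434 when 1 library was left out, and it was 0.0781 over listed genes outside the mitochondrial chromosome. Scaled to the reads of listed genes, the median of all listed genes moved from 0.57 to 0.04 and that of the members to 0.61. TEC entries then stood at 1.46 and Rn7sk at 0.39, with 22 members not overlapping (26.5%, against 8.07% of listed genes). Under this scaling 27 members were at least 2-fold higher, against 77 of the 1375 listed genes. Cct6a and Dbpht2 reversed under it, to -0.0083 and -0.19. It divides by the reads of genes selected as higher in responders, which lowers the differences. Before scaling, those of Cct6a and Dbpht2 were 0.51 and 0.27, below the listed median of 0.57. With no minimum of reads the medians were 2.36 for TEC entries and 3.87 for structured RNAs. For the structured RNAs, Gm25911 and Gm23657 then joined Rn7sk, with 16 and 13 reads, of which 1 each was in nonresponders. With a minimum of 100 reads the TEC median was 1.10, 35 members did not overlap and 27 were at least 2-fold higher, from fewer members. With the replicate block, the mean over same-numbered pairs, the members' median was 1.08, against 0.52 over all listed genes. Of the members, 46 were then at least 2-fold higher, against 163 of the 1375 listed genes. A check of pairing, which was not a correlation of the FPKM levels themselves, gave coefficients of -0.06, -0.06 and -0.03 for same-numbered libraries. Other pairs of a nonresponder and a responder gave -0.03 to 0.10. From so few mice and from genes selected on the contrast, these values cannot decide whether equal numbers share more than a label. Of 288 values of the 32 named genes under these alternatives, 286 were above 0. The selection of genes higher in responders largely fixed this in advance. With all libraries, 1358 of the 1375 listed genes had a ratio, and all 1358 were above 0. With 1 library left out, 1353 to 1358 were above 0, where genes without a ratio were not counted. At these depths 4 of the 83 members had a library with 0 reads.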
